A study of Mus musculus with 8 samples.

Results

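The tricarboxylic acid (TCA) cycle was followed through 9 of its enzymes in white quadriceps of mice with and without the thioesterase gene Acot2. The members were taken from the deposited expression table by gene name: Cs, Idh2, Idh3a, Idh3b, Ogdh, Dlst, Sucla2, Fh1 and Mdh2. They are 9 of 54091 rows, and all 9 passed the filter on low values, a mean normalized count of at least 10, which 15657 genes passed. The knockout group held 4 libraries (replicates 5 to 8) whose genotype is given as CKM Cre with Acot2 knocked out in muscle. CKM is the muscle creatine kinase gene, whose promoter is active in skeletal and heart muscle. The control group held 4 libraries (replicates 1 to 4) from mice with loxP sites on both copies of Acot2. All mice of both groups were male, 11 to 14 weeks old, and had eaten a 60% fat diet for 7 days, so diet was not compared here. White quadriceps is the pale portion of a thigh muscle, rich in fast fibres. Whether the libraries came from separate animals is not stated, and p-values then cover the spread between these samples, which may be technical. Cre was carried by the knockouts alone, and its own effect cannot be told apart from the loss of Acot2.

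The TCA cycle runs in the mitochondrial matrix and burns the acetyl group of acetyl-CoA to carbon dioxide. Fatty acid oxidation and pyruvate dehydrogenase both deliver acetyl-CoA to it, and its dehydrogenases hand electrons to the respiratory chain as NADH and FADH2. Acot2 encodes a mitochondrial thioesterase that splits long-chain acyl-CoA into fatty acid and free coenzyme A, a cofactor that the cycle's 2-oxoglutarate dehydrogenase also needs. In muscle, citrate synthase activity is a customary measure of mitochondrial content.

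Read counts recovered from the deposited values came to 55283998 to 74996048 in knockout libraries and 70275616 to 109101231 in control libraries. Acot2 itself stood at 324.8, 273.4, 256.4 and 354 normalized counts in knockout replicates 5 to 8, against 2179, 3348, 4165 and 2166 in control replicates 1 to 4, so the targeted gene matched the labels in all 8 libraries. Of the 50-base windows of Acot2 transcripts, 27.7% also occur in Acot1, Acot4 or Acot5. The myosin genes matched the tissue label, but not every gene of the list of 11 fast fibre markers was high. Tnnc2 stood at only 89.6 to 129 normalized counts in knockout and 73.9 to 96.4 in control libraries. Per kilobase of transcript, the fast myosin Myh4 lay at 393634 to 508467 normalized counts in knockout and 465169 to 641591 in control libraries, and the slow myosin Myh7 at 153 to 1105 in knockout and 287 to 2438 in control libraries. Control replicates 3 and 4 stood apart from the other 6 libraries, at -55.2 and -56.1 on a first principal component where the others lay between -0.561 and 38.6. In these 2 libraries short transcripts were low and long ones high. Genes with transcripts of at most 1701 bases had a median log2 deviation of 0.11 to 0.19 in knockout libraries, 0.051 and 0.066 in control replicates 1 and 2, and -0.32 and -0.34 in control replicates 3 and 4. The members' results are therefore given below also without these libraries, or with the trend over transcript length and GC content removed from each library, or with both changes. In bulk tissue, fewer cells of a type and less RNA per cell cannot be told apart.

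The start regions of 3 members are shown because these had the largest group differences among the members with an entry in the RefSeq table of promoters (GRCm38.p6): Cs and Ogdh, whose knockout values lay below every control value, and Mdh2, whose estimate was the highest. Each line gives the 250 bases before the RefSeq start, 5′ to 3′ on the gene's strand; for Ogdh, which has 6 windows in the table, the one nearest to the GENCODE start is shown. The gene positions given below are from GENCODE, whose starts differ, so that 169 bases of the Mdh2 window, 26 of the Ogdh window and 0 of the Cs window lie inside the gene as placed there. The windows of 5 of the 8 members enter the GENCODE gene in this way. Capitals mark matches to the SP1 motif GGGCGG or to CCAAT, on either strand.
Cs, chr10:128337477-128337726, plus strand: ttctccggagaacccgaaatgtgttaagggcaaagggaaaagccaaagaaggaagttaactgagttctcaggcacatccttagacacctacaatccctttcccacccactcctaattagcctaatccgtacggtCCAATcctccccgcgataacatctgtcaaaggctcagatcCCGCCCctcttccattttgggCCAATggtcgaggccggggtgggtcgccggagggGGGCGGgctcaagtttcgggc
Ogdh, chr11:6291409-6291658, plus strand: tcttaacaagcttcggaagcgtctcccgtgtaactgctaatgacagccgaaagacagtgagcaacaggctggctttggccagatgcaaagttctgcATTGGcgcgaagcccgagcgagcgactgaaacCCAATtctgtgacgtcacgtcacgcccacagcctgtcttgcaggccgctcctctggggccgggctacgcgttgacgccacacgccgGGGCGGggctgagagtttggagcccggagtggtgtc
Mdh2, chr5:135778399-135778648, plus strand: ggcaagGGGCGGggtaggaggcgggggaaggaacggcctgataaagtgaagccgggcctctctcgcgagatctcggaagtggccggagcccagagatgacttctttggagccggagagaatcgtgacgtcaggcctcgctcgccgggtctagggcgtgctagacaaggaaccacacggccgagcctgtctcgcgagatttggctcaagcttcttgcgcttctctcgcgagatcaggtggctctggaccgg
Cs and Ogdh each held GGGCGG and CCAAT, 2 and 2 matches in Cs and 1 and 2 in Ogdh, while Mdh2 held 1 GGGCGG and no CCAAT. Over the 8 members with a window (all but Idh3a), 7 held GGGCGG and 5 held CCAAT, against 32.7% and 33.8% of all 32851 windows of the same length. Those 32851 windows are every entry of the promoter table, where a gene can have several, and were not limited to genes expressed in muscle. Whether the members differ from other expressed genes in these motifs was not tested. The NRF1 motif occurred in 1 of the 8 (Sucla2) and in 3.74% of all windows. All 250 bases of that Sucla2 window, which also held 1 GGGCGG, lie inside the gene as placed by GENCODE. The ERR motif TNAAGGTCA and the GABP motif CCGGAAG, which occurred in 1.14% and 6.91% of all windows, matched in none of these 8. A match is a string of letters, not a bound site.

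None of the 9 enzymes passed the threshold. With all genes tested by limma on log2(normalized count + 1) and Benjamini-Hochberg adjustment, the smallest adjusted p among them was 0.161 (Mdh2), and 1 gene of 15657 (0.00639%), Acot2, was called. At an unadjusted p under 0.05 there were 2 members, Ogdh on the low side and Mdh2 on the high side, beside a background of 13.3% of all genes on the low side and 13.6% on the high side, or 26.9% in either direction. The 4 knockout and 4 control values did not overlap in 3 members, Cs, Idh3a and Ogdh, all lower in knockouts, where 7.06% of all genes were lower and 6.06% higher without overlap, or 13.1% in either direction. The median log2 difference of the 9 was 0.078, beside 0.0026 over all genes tested. It was -0.087 with the trend over length and GC removed, -0.048 without control replicates 3 and 4, and -0.10 with both changes, so its sign turned. The 95% intervals of 8 members ran from 71.4% (Ogdh) to 145% (Mdh2) of the control level, and that of Idh2 from 62.3% to 147%. Together the 9 transcripts took 0.534%, 0.589%, 0.579% and 0.584% of the counts in knockout replicates 5 to 8, against 0.556%, 0.604%, 0.604% and 0.529% in control replicates 1 to 4 (exact two-sided permutation p = 1).

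**Figure D1:**
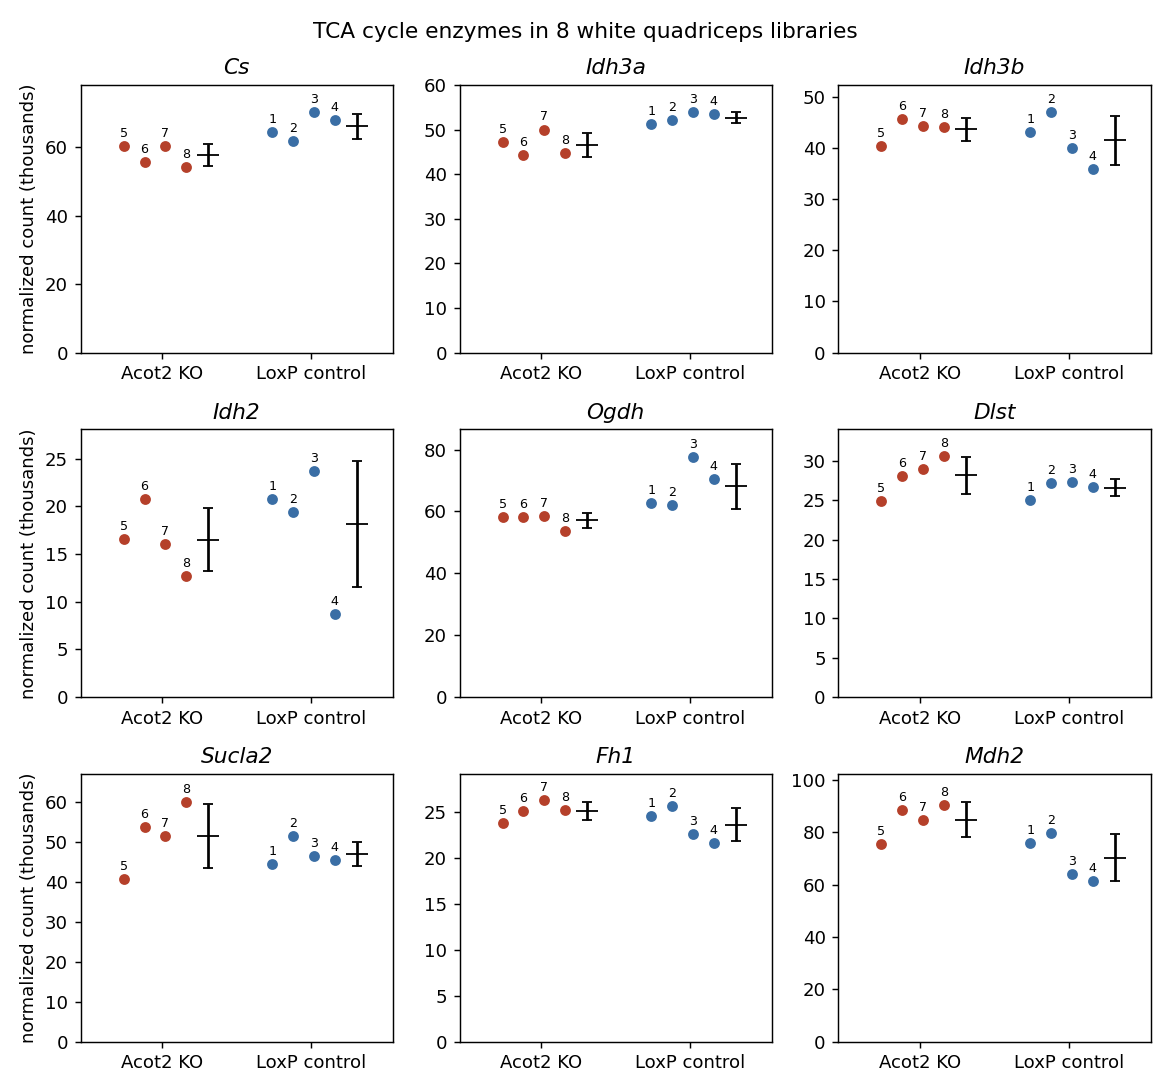
Normalized counts (axis in units of 1000) of the 9 enzymes in 4 Acot2 knockout libraries (red) and 4 loxP control libraries (blue). Numbers are replicates, and the black mark with bars is the mean ± SD of each group. Knockout and control points are separate for Cs, Idh3a and Ogdh and overlap for the other 6.

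The cycle begins with citrate synthase (Cs), which joins acetyl-CoA to oxaloacetate. Its gene sits at 128337734 to 128362479 of chromosome 10 (GRCm38, plus strand). Its normalized count was 60413, 55530, 60258 and 54282 in knockout replicates 5 to 8, against 64240, 61772, 70214 and 67747 in control replicates 1 to 4. Every knockout library lay below every control, with control replicates 3 and 4 the highest. Knockouts averaged 57621 ± 3177 and controls 65994 ± 3732 (SD, n = 4 each). On the log2 scale they differed by -0.20 ± 0.10 (SE), which is 87.3% of the control level with a 95% interval of 74.9% to 102% (limma, adjusted p = 0.235). The exact two-sided permutation p was 0.0286, the smallest that 4 against 4 allow. Without control replicates 3 and 4 the difference was -0.13, with the trend over length and GC removed -0.17, and with both changes -0.12. Of the 50-base windows of Cs transcripts, 2.01% also occur in Csl, a testis-type relative that was too low to test here, at no more than 8.82 normalized counts.

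Isocitrate is oxidised by an NAD-linked enzyme built from Idh3a, Idh3b and Idh3g subunits and by the separate NADP-linked enzyme Idh2, which supplies matrix NADPH. Idh3a, the catalytic subunit (chromosome 9, plus strand, 54586334 to 54604661), stood at 47186, 44317, 50025 and 44693 in knockout replicates 5 to 8, against 51236, 52063, 54056 and 53423 in control replicates 1 to 4. The groups did not overlap, and the controls differed among themselves by less than the knockouts, with coefficients of variation of 5.67% in knockouts and 2.43% in controls. Idh3a differed by -0.18 ± 0.10 (SE) on the log2 scale, or 88.3% of control with an interval of 76.1% to 102% (limma, adjusted p = 0.256; exact permutation p = 0.0286). It was -0.15 without control replicates 3 and 4, -0.16 with the trend over length and GC removed and -0.15 with both changes.

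Idh3b, a regulatory subunit (chromosome 2, minus strand, 130279309 to 130284547), stood at 40386, 45626, 44329 and 44099 in knockout replicates 5 to 8, against 43165, 46984, 39880 and 35842 in control replicates 1 to 4. The groups overlapped, with the lowest value in control replicate 4 and the highest in control replicate 2. Idh3b differed by 0.078 ± 0.11 on the log2 scale (SE; limma, adjusted p = 0.679), and the sign turned, to -0.048 without control replicates 3 and 4 and to -0.087 with the trend over length and GC removed. The partner Idh3g, also regulatory, stood at 20204 to 25123 in knockouts and 24622 to 27199 in controls, with a log2 difference of -0.20 ± 0.11 (limma, adjusted p = 0.25). It was -0.41 with the trend over length and GC removed, -0.21 without control replicates 3 and 4 and -0.28 with both changes.

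Idh2 (chromosome 7, minus strand, 80094846 to 80115392) varied most of the 9 enzymes. Its normalized count was 16616, 20714, 16017 and 12672 in knockout replicates 5 to 8, against 20757, 19447, 23694 and 8680 in control replicates 1 to 4. The lowest and the highest of the 8 values were both controls. The coefficient of variation was 20% in knockouts and 36.1% in controls, where the other members had at most 15.7% in knockouts and 12.8% in controls. Its log2 difference was -0.062 ± 0.28 (SE; limma, adjusted p = 0.905). It was -0.38 without control replicate 4 and 0.098 without control replicate 3, so the 2 libraries pulled it in opposite directions. Without both it was -0.31, with the trend over length and GC removed -0.26, and with both changes -0.37.

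The 2-oxoglutarate dehydrogenase complex holds the decarboxylase Ogdh (E1), the succinyltransferase Dlst (E2) and the dihydrolipoamide dehydrogenase Dld (E3), which the pyruvate dehydrogenase complex shares. Ogdh (chromosome 11, plus strand, 6291633 to 6356642) stood at 58194, 58315, 58371 and 53586 in knockout replicates 5 to 8, against 62574, 62215, 77439 and 70487 in control replicates 1 to 4. All knockout values lay below all controls, and control replicates 3 and 4 were far above the other controls. Knockouts averaged 57117 ± 2355 and controls 68179 ± 7259 (SD, n = 4 each). The log2 difference was -0.25 ± 0.11 (SE), or 84.1% of control with an interval of 71.4% to 99% (limma, adjusted p = 0.165; exact permutation p = 0.0286). Without control replicates 3 and 4 it was -0.13, and with the trend over length and GC removed -0.14, and with both changes -0.10. The Ogdh transcript, at 4127 bases, is the longest of the 9.

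Dlst (chromosome 12, plus strand, 85110833 to 85134845) lies on the chromosome of Acot2, 1116960 bases beyond its end. It stood at 24986, 28160, 29014 and 30653 in knockout replicates 5 to 8, against 25031, 27278, 27350 and 26728 in control replicates 1 to 4. The lowest library was knockout replicate 5, and the other 3 knockouts lay above every control. Dlst differed by 0.082 ± 0.10 on the log2 scale (SE; limma, adjusted p = 0.635), and by 0.040 to 0.14 under the 20 alternatives. Dld stood at 19625 to 29714 in knockouts and 23089 to 27437 in controls, with a log2 difference of -0.014 ± 0.13 (limma, adjusted p = 0.961).

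Succinyl-CoA ligase makes ATP or GTP according to its beta subunit, Sucla2 for the ADP-forming enzyme and Suclg2 for the GDP-forming enzyme, each paired with the alpha subunit Suclg1. Sucla2 (chromosome 14, plus strand, 73525319 to 73596142) stood at 40709, 53865, 51460 and 60046 in knockout replicates 5 to 8, against 44474, 51460, 46559 and 45632 in control replicates 1 to 4. The knockouts held both the lowest and the highest value, in replicates 5 and 8. Sucla2 differed by 0.12 ± 0.13 on the log2 scale (SE; limma, adjusted p = 0.56). It was 0.23 without knockout replicate 5, 0.041 without knockout replicate 8, 0.093 without control replicates 3 and 4, 0.13 with the trend over length and GC removed and 0.088 with both changes. Suclg1 had a mean of 35803 ± 4486 in knockouts and 28253 ± 4463 in controls (log2 difference 0.35 ± 0.14 SE; limma, adjusted p = 0.131). Its difference was 0.19 with the trend over length and GC removed, 0.15 without control replicates 3 and 4 and 0.10 with both changes. Suclg2 had 4095 ± 245 in knockouts and 5111 ± 805 in controls, without overlap (log2 difference -0.31 ± 0.12 SE; limma, adjusted p = 0.126), and -0.20 with the trend over length and GC removed. Of the 50-base windows of Suclg2 transcripts, 16% also occur in the annotated gene Gm15163, so its count is uncertain.

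Fumarate hydratase (Fh1), which adds water to fumarate, is encoded at 175600374 to 175625635 of chromosome 1 (minus strand). It stood at 23892, 25122, 26314 and 25225 in knockout replicates 5 to 8, against 24637, 25742, 22616 and 21712 in control replicates 1 to 4. The groups overlapped, and control replicates 3 and 4 were the 2 lowest libraries. Fh1 differed by 0.089 ± 0.10 on the log2 scale (SE; limma, adjusted p = 0.594) and by -0.0035 without those libraries, 0.11 with the trend over length and GC removed and -0.0017 with both changes.

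Malate dehydrogenase (Mdh2), which closes the cycle by remaking oxaloacetate and also serves the malate-aspartate shuttle, is encoded at 135778480 to 135790398 of chromosome 5 (plus strand). Its normalized count was 75646, 88506, 84765 and 90616 in knockout replicates 5 to 8, against 76083, 79705, 64049 and 61299 in control replicates 1 to 4. Knockout replicates 6, 7 and 8 lay above every control, knockout replicate 5 lay between the controls, and control replicates 3 and 4 were lowest. Knockouts averaged 84883 ± 6616 and controls 70284 ± 8981 (SD, n = 4 each). Mdh2 differed by 0.28 ± 0.12 (SE) on the log2 scale, or 121% of control with an interval of 101% to 145% (limma, adjusted p = 0.161; exact permutation p = 0.0857). It was 0.12 without control replicates 3 and 4, 0.035 with the trend over length and GC removed and 0.033 with both changes. The Mdh2 transcript, at 1456 bases, is the shortest of the 9.

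**Figure D2:**
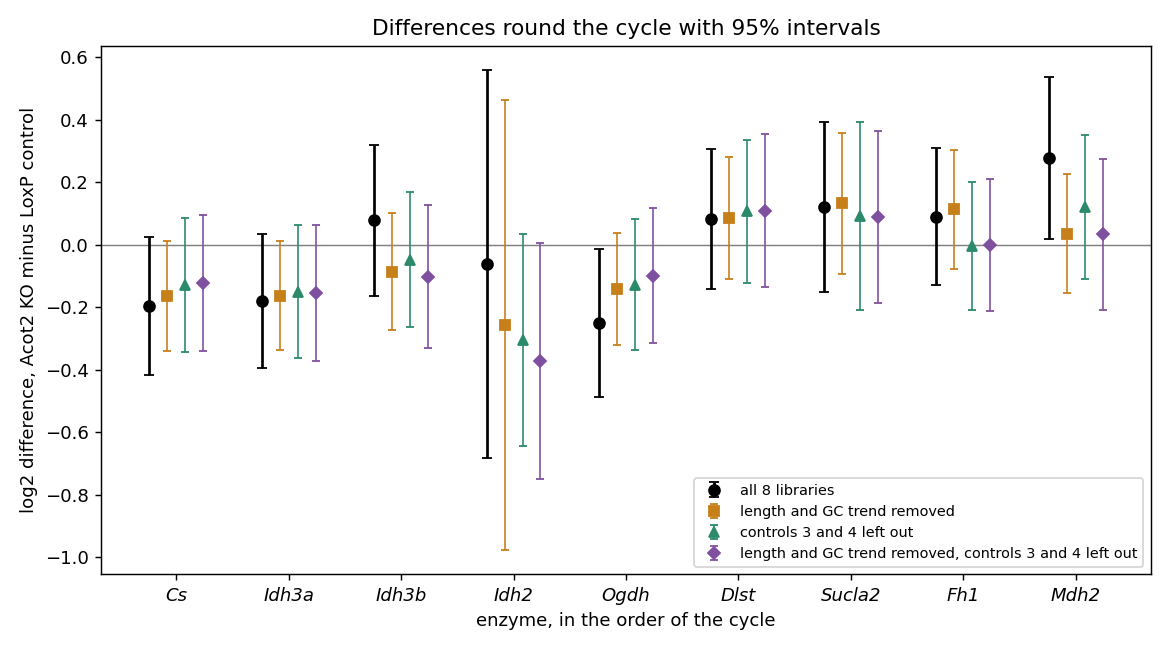
Log2 difference of each enzyme, knockout minus control, in the order of the cycle, with 95% intervals from limma, from all 8 libraries (black circles) and under 3 changes to the data (coloured symbols). The intervals of Ogdh and Mdh2 from all 8 libraries exclude 0, and under each of the 3 changes the intervals of all 9 enzymes include 0.

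Seen by library, several of the enzymes, though not all, fell into opposite patterns in the controls that stood apart. In control replicates 3 and 4 Ogdh deviated from its mean over the 8 libraries by 0.31 and 0.18 on the log2 scale and Cs by 0.19 and 0.14. Mdh2 deviated there by -0.26 and -0.33, Fh1 by -0.11 and -0.17 and Idh3b by -0.088 and -0.24. Idh3a was high in both libraries, by 0.13 and 0.11, and Sucla2 low, by -0.072 and -0.10. Idh2 went opposite ways in the 2 libraries, by 0.51 and -0.94, and Dlst deviated by only 0.00042 and -0.033. The median deviation over the 9 members was -0.069, 0.044, 0.064 and 0.050 in knockout replicates 5 to 8, against 0.016, 0.072, 0.00042 and -0.10 in control replicates 1 to 4. Of the 9 members, 8 lay below their own mean in knockout replicate 5 and 6 in control replicate 4, against 2 to 4 in the other 6 libraries. Knockout replicate 5 was the lowest of the knockouts for Idh3b, Dlst, Sucla2, Fh1 and Mdh2.

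Transcript length moved with these differences. Among all 15567 genes with a length, the median log2 difference was 0.36 in the shortest and -0.28 in the longest of 10 equal groups by length. For the 9 members Spearman's rho between length and difference was -0.63, and over all genes it was -0.45. These are descriptions across genes, which share the same 8 libraries and are not independent replicates. Idh3a departed from the order of lengths most plainly among the non-overlapping members: at 2403 bases it is shorter than Fh1 and Dlst, whose estimates were above 0. The values with a trend removed take out length and GC content together, so the part of length alone in any member's difference was not tested.

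**Figure D3:**
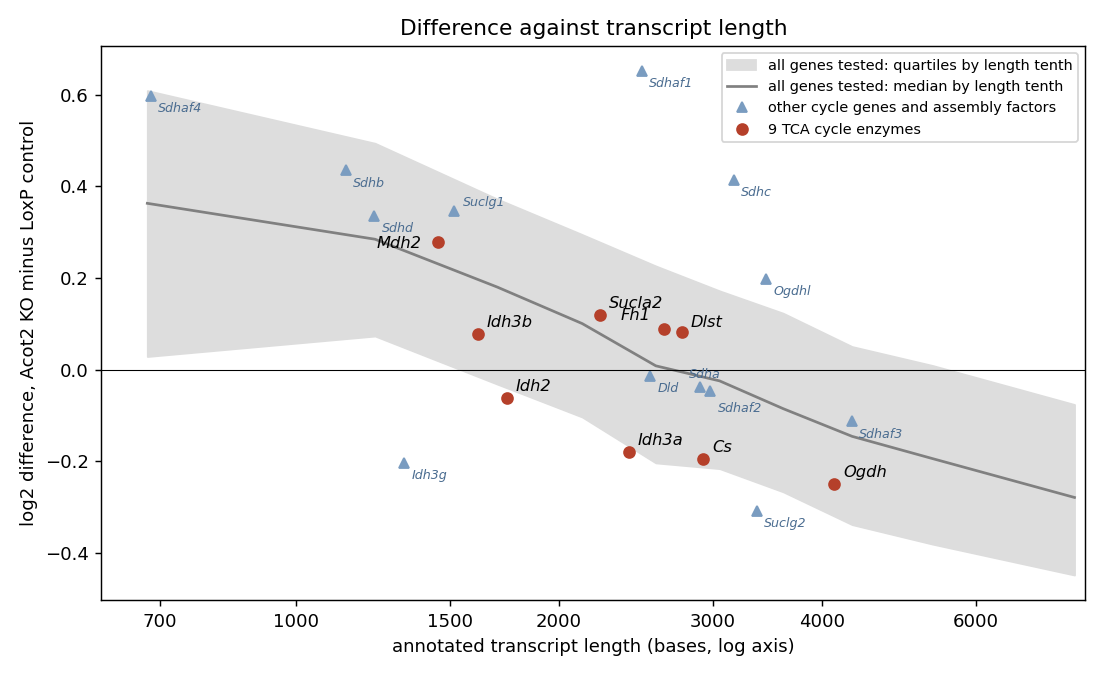
Log2 difference, knockout minus control, against annotated transcript length on a log axis. Red circles are the 9 enzymes, blue triangles 13 of the 14 other cycle genes and assembly factors tested, and the grey line and band are the median and quartiles of all genes tested in 10 groups by length. Mdh2, at 1456 bases, has the highest and Ogdh, at 4127 bases, the lowest difference of the 9, and the grey line runs downward from 0.36 to -0.28.

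Ratios within a library do not depend on how that library was scaled. Of 9 ratios between subunits or enzymes, none passed after adjustment over the 9 (exact two-sided permutation, smallest adjusted p = 0.171). With 4 against 4, 1 fully separated ratio alone would have an adjusted p of 0.257, and at least 6 such ratios would be needed for any to pass. The log2 ratio of Cs to Mdh2, the enzymes on either side of oxaloacetate, was -0.32, -0.67, -0.49 and -0.74 in knockout replicates 5 to 8, against -0.24, -0.37, 0.13 and 0.14 in control replicates 1 to 4. Knockout replicate 5 lay between the controls. The difference was -0.47 (exact permutation p = 0.0571, adjusted p = 0.171). It was -0.20 with the trend over length and GC removed.

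The log2 ratio of Fh1 to Mdh2 was -1.66, -1.82, -1.69 and -1.84 in knockout replicates 5 to 8, against -1.63, -1.63, -1.502 and -1.497 in control replicates 1 to 4, without overlap. The difference was -0.19 (exact permutation p = 0.0286, adjusted p = 0.171), and it turned to 0.077 with the trend over length and GC removed. Between E1 and E2 of the 2-oxoglutarate dehydrogenase complex, the Ogdh to Dlst log2 ratio was 1.22, 1.05, 1.01 and 0.81 in knockout replicates 5 to 8, against 1.32, 1.19, 1.502 and 1.40 in control replicates 1 to 4. The difference was -0.33 (exact permutation p = 0.0571, adjusted p = 0.171) and stayed at -0.23 with the trend over length and GC removed.

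For the beta subunits of succinyl-CoA ligase, the Sucla2 to Suclg2 log2 ratio was 3.26, 3.63, 3.76 and 3.90 in knockout replicates 5 to 8, against 3.26, 3.40, 2.88 and 3.30 in control replicates 1 to 4. The difference was 0.43 (exact permutation p = 0.0857, adjusted p = 0.171), and 0.28 to 0.56 under the alternatives. Of the remaining ratios, Idh3a to Idh3b differed by -0.26, Ogdh to Dld by -0.24, Sucla2 to Suclg1 by -0.23, Idh2 to Idh3a by 0.12 and Idh3a to Idh3g by 0.02 (exact permutation, adjusted p = 0.171 to 0.857). With the trend over length and GC removed, Idh3a to Idh3b differed by -0.077, Ogdh to Dld by -0.19 and Sucla2 to Suclg1 by -0.061. The Idh3a to Idh3g log2 ratio was 1.04 ± 0.10 in knockouts and 1.02 ± 0.083 in controls (SD, n = 4 each), and its difference was 0.25 with the trend over length and GC removed, 0.062 without control replicates 3 and 4 and 0.13 with both changes.

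**Figure D4:**
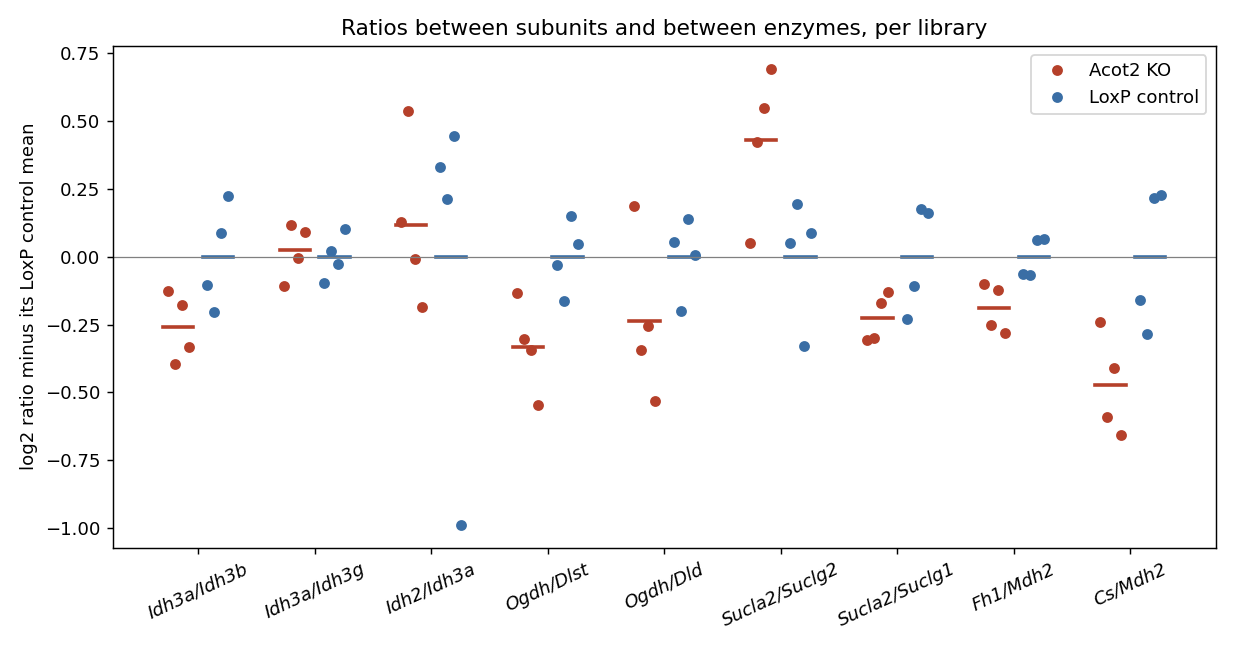
Log2 ratio of normalized counts for 9 pairs of cycle genes in each library, minus the control mean of that ratio. Red points are the 4 knockout libraries, blue points the 4 control libraries, and short lines are group means. The Fh1 to Mdh2 points do not overlap, the Cs to Mdh2 means lie 0.47 apart, and the lowest Idh2 to Idh3a point is control replicate 4.

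Divided by transcript length, the enzymes differed widely in level. Mdh2 led, with 42101 to 62237 normalized counts per kilobase over the 8 libraries (median 53499), above every value of the other members. Idh3b followed at 22179 to 29074 and was above Sucla2 in all 8 libraries. Sucla2 (18263 to 26938), Cs (18551 to 23997) and Idh3a (18442 to 22495) could not be ordered within their spread: Sucla2 exceeded Cs in 4 of 8 libraries and Cs exceeded Idh3a in 5 of 8. Ogdh, at 12984 to 18764, was below Idh3a in all 8. Idh2 (4974 to 13578), Dlst (9040 to 11090) and Fh1 (8237 to 9983) formed the low end, with overlapping ranges. The partner subunits had 15179 to 20435 for Idh3g, 7714 to 11680.0 for Dld and 16007 to 26036 for Suclg1. Suclg2 stood at 1126 to 1873 per kilobase, far below Sucla2, and Ogdhl, a relative of Ogdh, at 8.46 to 25.5. These levels use the length of the annotated principal transcript, which need not be the form expressed in muscle.

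Of the other 15 genes of the cycle and of succinate dehydrogenase assembly, 14 were tested and 0 passed over all genes, while 6 had higher and 2 lower values with an unadjusted limma p under 0.05, a threshold met by 13.6% of all genes on the high side and 13.3% on the low side. Their median log2 difference was 0.093, beside 0.0026 over all genes. Sdhaf4 and Sdhaf1, assembly factors of succinate dehydrogenase, differed by 0.60 ± 0.19 and 0.65 ± 0.22 (SE; limma, adjusted p = 0.0867 and 0.094). Without control replicates 3 and 4 they differed by 0.32 and 0.27, and with the trend over length and GC removed by 0.39 and 0.63. Without control replicate 2 both passed (limma, adjusted p = 0.0312 and 0.0289), a setting in which 2048 of 15664 genes (13.1%) passed. Of the exon bases of Sdhaf1, 69.6% lie in exons of a gene on the opposite strand, and of those of Sdhaf4, 12.7%. Of the 23 cycle genes tested, members included, 12 had higher and 11 lower estimates. With the trend over length and GC removed it was 15 higher and 8 lower, and without control replicates 3 and 4, with or without the trend, 11 higher and 12 lower.

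At the entrance to the cycle, the 4 core genes of pyruvate dehydrogenase gave 0 calls, and an unadjusted limma p under 0.05 for 1 on the high and 1 on the low side, beside 26.9% of all genes in either direction. Pdhb, the E1 beta subunit, had 37815 ± 3934 in knockouts and 29994 ± 3603 in controls (SD, n = 4 each; log2 difference 0.34 ± 0.12 SE, limma adjusted p = 0.111). Its difference was 0.21 with the trend over length and GC removed, 0.20 without control replicates 3 and 4 and 0.16 with both changes. Of its 50-base windows 10.9% also occur in other annotated genes. Pdha1, the E1 alpha subunit, had 23799 ± 5735 in knockouts and 31708 ± 7422 in controls (log2 difference -0.42 ± 0.19 SE, limma adjusted p = 0.181), and -0.13 without control replicates 3 and 4. Of its exon bases, 16.15% lie in exons of a gene on the opposite strand. Pdhx, which anchors E3, differed by 0.20 ± 0.12 (limma, adjusted p = 0.283), and by 0.12 without control replicates 3 and 4. Among 24 genes of anaplerosis, cytosolic counterparts and carriers, 0 passed, an unadjusted limma p under 0.05 was found for 3 on the high and 2 on the low side, again beside 26.9% of all genes in either direction, and the median difference was -0.061. Slc25a12, a mitochondrial aspartate-glutamate carrier, had 25785 ± 1596 in knockouts and 33158 ± 2887 in controls, without overlap (log2 difference -0.36 ± 0.11 SE, limma adjusted p = 0.081), and -0.12 with the trend over length and GC removed. It passed without control replicate 1 or 2 and with sample quality weights (limma, smallest adjusted p = 0.0435). In these settings 11.0%, 13.1% and 7.67% of all genes passed. Gpt, alanine aminotransferase, differed by 0.33 ± 0.14 (SE; limma, adjusted p = 0.146). It was 0.10 with the trend over length and GC removed, 0.11 without control replicates 3 and 4 and 0.033 with both changes. Without control replicate 2 it passed (limma, adjusted p = 0.0488), as did 13.1% of all genes.

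Other cell types were followed through fixed marker lists. Heart markers summed to 1293, 1911, 1300 and 12989 normalized counts in knockout replicates 5 to 8, against 1071 to 1572 in controls. Among them the atrial light chain Myl7 was at 0 in knockout replicates 5, 6 and 7, at 1124 in replicate 8 and at most 4.1 in controls, and no heart marker was at 0 in every library. Knockout replicate 8 had the highest Mdh2, Sucla2 and Dlst and the lowest Cs, Ogdh and Idh2 of the knockouts. Without it the 9 members had a median difference of 0.041 and none passed. Macrophage markers summed to 11475 to 17923 in knockouts and 7777 to 11062 in controls, without overlap. Singly, 2 of the 8 markers were higher in knockouts without overlap, where 6.06% of all genes were. All 8 had higher estimates, and 6 were higher at an unadjusted limma p under 0.05, where 13.6% of all genes were. After adjustment 0 of the 8 passed. Lyz2, the largest part of the sum, overlapped, at 5175 to 8308 in knockouts and 3166 to 5184 in controls. Cd68 was lowest of all libraries in knockout replicate 6, at 77.4. With overlap, brown adipocyte markers summed to 36982 to 46902 in knockouts and 20208 to 37570 in controls, and white adipocyte markers to 29419 to 52917 in knockouts and 20548 to 40237 in controls. Most of the brown sum was Cox8b, at 33213 to 43634 in knockouts and 18024 to 35681 in controls. Ucp1 was at 0 in knockout replicate 7, where the brown sum was 42014. Ppargc1a was at 1370 to 1898 in knockouts and 1604 to 2101 in controls. Most of the white sum was Fabp4. These sums therefore rest largely on single genes. The part of these cell types in the members' values was not tested.

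The 5 genes whose values over the 8 libraries were most like the mean standardised profile of the 9 members were Gm32391, Nap1l5, Rps12-ps9, Unc13d and 1110059E24Rik. Pearson's r ran from 0.924 to 0.951 over 8 libraries and from 0.893 to 0.938 over the 6 without control replicates 3 and 4. They are the extreme of 15657 genes, and the libraries they share also share depth and the length trend. The members themselves did not share 1 profile. Of their 36 pairs, 19 had a positive Pearson's r over the 8 libraries, with a median of 0.017 and a range of -0.93 to 0.94. A high r with the mean profile is therefore not likeness to each member.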

How the data were processed

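RNA from white quadriceps was sequenced in 8 libraries, 4 knockout and 4 control. Per the labels' protocols, a Norgen Biotek kit gave the RNA and NEB Next Ultra II the libraries. The submitters' processing notes name cutadapt, FastQC, STAR, HTSeq and DESeq2 with the build GRCm38. For tool versions, and for the annotation and strand used in counting, the entry is: not given in the sources used here. Values in the deposited table are log2. With the log2 undone and 1 subtracted, 100% of values up to 1000 reads lay within 0.1 of whole multiples of 1 step per library, the form of counts divided by a size factor per library and not by length. Those values are called normalized counts here. A floor of 3 reads, chosen for counting error and not estimated from the data, equals 2.04 to 3.87 normalized counts.

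The test was limma 3.58.1 (R 4.3.3), with trend and robust options, applied to log2(normalized count + 1) of genes averaging 10 or more, and Benjamini-Hochberg adjustment at 0.05. Differences are knockout minus control. The design foresaw a count test for raw counts, and none was run on these log2 values; voom of limma was run on the recovered reads as an alternative. Single values were also compared by exact two-sided permutation over samples. Lengths, positions and overlaps came from GENCODE M21 (GRCm38), and 15567 tested genes had a length. The length and GC trend was removed per library by loess with a span of 0.5. The members and lists were chosen with earlier results of these data known. Named genes are the 9 members, Acot2, the 3 of smallest p in each pathway list, partners in the ratios, and the 5 of most similar profile. Some genes that this rule names are not reported here. Other steps used Python 3.11.15 with scipy 1.17.1, pandas 2.3.3, matplotlib 3.10.9 and numpy 2.4.6.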

Additional observations from a re-analysis of the deposited data

Results flagged for a closer look

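In 6 of 66 sets of 4 libraries checked, 1 library lay further from the rest than Dixon's 95% limit allows for 4 values, where chance alone gives about 1 in 20. Ogdh was at 53586 normalized counts in knockout replicate 8, below 58194 to 58371 in the other 3 knockouts. Idh2 relative to Idh3a had a log2 ratio of -2.62 in control replicate 4, below -1.42 to -1.19 in the other controls. Dld was at 23089 in control replicate 1, below the other 3 controls, and Suclg2 at 6308 in control replicate 3, above the other 3 controls. Slc25a12 was at 23394 in knockout replicate 8, below the other 3 knockouts, and Gpt at 3028 in knockout replicate 7, above the other 3 knockouts.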

How the results depend on the processing

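None of the 9 enzymes passed under any of 20 alternatives, and the smallest adjusted p was 0.0879, for Mdh2 without control replicate 2 (limma). The differences of Cs, Idh3a, Ogdh, Dlst, Sucla2 and Mdh2 kept their sign in all 20. No paired analysis was possible because the groups share no replicate numbers. Over all genes, the number called was 2 with no filter, 2 with equal totals, 6 with the length and GC trend removed, 1201 with sample quality weights, and 1 to 2048 with 1 library left out (1720 without control replicate 1 and 2048 without control replicate 2). The count of members at an unadjusted p under 0.05 was 0 higher and 3 lower under quantile normalization, 1 higher and 0 lower under equal totals, and 0 in both directions with the trend removed, without control replicates 3 and 4, or with both, and 0 to 1 in each direction with 1 library left out. Their median difference was -0.00097 under quantile normalization, -0.087 with the trend removed, -0.048 without control replicates 3 and 4, -0.10 with both, and 0.011 to 0.11 with 1 library left out. Among the other cycle genes 2 passed with quality weights and 0 to 6 with 1 library left out, and among the anaplerosis genes 1 and 0 to 2. Beside these, 7.67% of all genes passed with quality weights and up to 13.1% with 1 library left out. The pyruvate dehydrogenase genes gave 0 throughout.

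Signs turned as follows. Idh3b was -0.00097 under quantile normalization, -0.087 with the trend removed, -0.048 without control replicates 3 and 4 and -0.10 with both. Fh1 was -0.0035 without control replicates 3 and 4 and -0.0017 with both. Dld was 0.052 with the trend removed, 0.035 without control replicates 3 and 4 and 0.048 with both, and -0.082 to 0.12 with 1 library left out. Idh2 ran from -0.38 to 0.098 with 1 library left out. The Idh2 to Idh3a log2 ratio was -0.15 without control replicates 3 and 4, -0.094 with the trend removed, -0.22 with both, and -0.21 to 0.27 with 1 library left out. The Idh3a to Idh3g ratio ran from -0.0085 to 0.068 with 1 library left out and was 0.25 with the trend removed and 0.13 with both, and the Fh1 to Mdh2 ratio was 0.077 with the trend removed. The cause of these turns was not tested. There were 4 libraries a group, of which 2 controls stand apart. The log2 differences of Idh2, Idh3b, Dlst, Sucla2 and Fh1 were smaller than the larger of their 2 group SDs. Those of Cs, Idh3a, Ogdh and Mdh2 exceeded both SDs, though none passed. For Cs the SDs were 0.080 in knockouts and 0.082 in controls, and for Idh3a 0.081 and 0.035.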

Other observations

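The following values were picked out after they were seen, and none has been tested. Idh2 and the summed slow and oxidative fibre markers (10 genes, among them Mb, Myh2, Myh7 and Tnni1) moved side by side in several libraries. Mb was the largest part of the sum in every library, at 110003 in control replicate 4 to 209428 in control replicate 2. The summed marker level was 223124, 376606, 290053 and 328956 normalized counts in knockout replicates 5 to 8, against 264201, 327872, 425152 and 189178 in control replicates 1 to 4. Control replicate 3 had the highest Idh2 and the highest marker sum of the 8 libraries, control replicate 4 had the lowest of both, and knockout replicate 6 led the knockouts in both. Knockout replicate 8, which had the lowest Idh2 of the knockouts, did not follow, with the second marker sum among them.

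Nnt, the transhydrogenase that makes matrix NADPH beside Idh2, was low in every library, at 9.38 to 19.4 normalized counts in knockouts and 18.3 to 28.5 in controls. Of the paired aspartate-glutamate carriers, Slc25a12 stood at 3683 to 4199 normalized counts per kilobase in knockouts and 4825 to 5708 in controls, and Slc25a13 at 20.5 to 36 in knockouts and 10.2 to 23.6 in controls. Brown adipocyte Ucp1 was at 1458, 16.8, 0 and 885 normalized counts in knockout replicates 5 to 8, against 12.7, 12.1, 133.4 and 0 in control replicates 1 to 4.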
